A study of Mus musculus with 3 samples.

Results

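The expression levels of 10 nuclear receptor genes of the liver, chosen by name, were compared among normal liver, HCC and Ymac-1 cells. The genes were Nr1i2, Nr1i3, Nr1h4, Nr0b2, Nr1h3, Ppara, Pparg, Rxra, Nr5a2 and Esr1. They were 10 of 19084 named genes on the array and were read by 12 of 26423 probes, with a pair of probes each for Ppara and Rxra. Normal liver came from a female wild type mouse. HCC was a liver tumor of a female Gnmt-/- mouse, which lacks glycine N-methyltransferase, a liver enzyme that uses up S-adenosylmethionine. Ymac-1 is 1 cell line with a spindle-like, sarcomatoid appearance, established from a liver tumor of an aged Gnmt-/- mouse and cultured in DMEM, so tumor and line share the Gnmt disruption. The ages of the animals on the arrays, and whether the line came from the tumor on the array, is not stated in the paper or the labels. Total RNA was amplified, labelled with Cy5 and hybridized to a Mouse Whole Genome OneArray, with 1 array per condition. The paper sets its Ymac-1 array against liver and HCC array data that it cites from an earlier study. Whether the tissue arrays used here are those data, and were run together with the Ymac-1 array, is not stated. Differences thus rest on single arrays without replicates, and p-values were not computed.

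Nuclear receptors are transcription factors whose activity is set by small lipid-soluble ligands. In the liver, PXR (Nr1i2) and CAR (Nr1i3) respond to drugs and other foreign compounds, FXR (Nr1h4) to bile acids, LXRα (Nr1h3) to oxysterols and PPARα (Ppara) to fatty acids. Each of these binds DNA as a partner of RXRα (Rxra), while LRH-1 (Nr5a2) binds as a monomer and estrogen receptor α (Esr1) as a homodimer. SHP (Nr0b2) has no DNA-binding domain and represses other receptors, among them LRH-1 and LXRα, and PPARγ (Pparg) is best known from adipocytes.

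Values are linear intensities with background already subtracted. Readings under 50 were raised to this floor before log2 was taken. Genes counted as higher or lower are those whose log2 values differed by at least 1, a 2-fold change. Where the weaker reading did not exceed the floor, the fold is a lower bound and is given as "at least". Levels are given for each gene across arrays and are not compared between genes. Gnmt itself read 3583 in the liver, 15.6 in the tumor and 56.1 in the line. The arrays were not level with one another. For the 7687 genes that exceeded the floor on each of the 3 arrays, the median log2 difference was 0.65 for HCC minus normal liver, 0.06 for Ymac-1 minus HCC and 0.72 for Ymac-1 minus normal liver. Of 15 measured hepatocyte markers, 15 lay above the floor in the liver, 15 in the tumor and 5 in the line, and their summed intensity was 355550, 483505 and 3224 in that order. The labelled tissue of the first pair was thus borne out by its markers, while most hepatocyte markers did not exceed the floor in the line. Alb (48.3) and Ttr (46.1) lay just under it there. By other methods, the paper reports Albumin mRNA in Ymac-1 above spleen and brain but far below liver, and liver plasma proteins in its culture medium. In bulk RNA such as that on these arrays, fewer cells of a type and less RNA per cell cannot be told apart.

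The receptor genes fell into 3 kinds by their levels. Nr1i3 and Nr0b2 were lower in HCC, measured against normal liver, and lower again in Ymac-1. Nr1i2, Nr1h4, Nr1h3, Ppara, Rxra, Nr5a2 and Esr1 stayed within 2-fold of normal liver in HCC as deposited and, by their brightest probes, lay 9.23-fold or more below HCC in Ymac-1. Pparg lay at background on every array. The promoter sequences below are a choice among these genes and do not stand for the 3 kinds. They belong to the pair lower in HCC (Nr1i3, Nr0b2) and to 2 of the 3 genes still read in Ymac-1 (Nr1h4, Rxra). Nr1h3, also read there, is not shown. Ppara was added, whose promoter is rich in CpG but whose probes were both under the floor in the line. Each is the 250 bases before a RefSeq gene start in the mouse build GRCm38.p6, 5′ to 3′ on the gene's own strand. They are Nr1i3 at chr1:171213720-171213969 (plus strand), Nr0b2 at chr4:133553126-133553375 (plus), Nr1h4 at chr10:89506659-89506908 (minus), Rxra at the first of its starts at chr2:27676951-27677200 (plus) and Ppara at chr15:85735526-85735775 (plus). Capitals mark every match, on either strand, to AGGTCA (the hexamer that nuclear receptors bind), GTTAAT (part of the HNF1 site), CACGTG (an E-box) and TATAAA (the TATA box).
Nr1i3: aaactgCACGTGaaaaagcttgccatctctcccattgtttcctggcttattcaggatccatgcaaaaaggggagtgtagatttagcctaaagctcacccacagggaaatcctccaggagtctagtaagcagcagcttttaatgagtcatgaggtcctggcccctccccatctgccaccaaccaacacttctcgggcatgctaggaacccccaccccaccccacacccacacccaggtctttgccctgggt
Nr0b2: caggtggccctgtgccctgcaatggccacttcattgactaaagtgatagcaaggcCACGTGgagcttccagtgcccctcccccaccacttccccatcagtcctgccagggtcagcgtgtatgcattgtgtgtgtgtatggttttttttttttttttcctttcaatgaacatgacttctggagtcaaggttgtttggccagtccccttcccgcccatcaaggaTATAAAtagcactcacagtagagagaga
Nr1h4: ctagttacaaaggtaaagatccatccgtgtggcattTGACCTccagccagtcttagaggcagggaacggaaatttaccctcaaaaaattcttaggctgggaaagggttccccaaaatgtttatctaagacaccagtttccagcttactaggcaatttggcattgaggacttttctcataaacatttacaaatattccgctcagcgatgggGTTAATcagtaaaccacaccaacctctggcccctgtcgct
Rxra: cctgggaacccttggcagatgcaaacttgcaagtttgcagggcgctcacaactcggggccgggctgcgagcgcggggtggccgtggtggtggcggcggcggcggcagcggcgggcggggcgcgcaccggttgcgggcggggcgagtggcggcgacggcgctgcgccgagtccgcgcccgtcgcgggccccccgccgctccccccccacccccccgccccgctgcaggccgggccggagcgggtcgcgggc
Ppara: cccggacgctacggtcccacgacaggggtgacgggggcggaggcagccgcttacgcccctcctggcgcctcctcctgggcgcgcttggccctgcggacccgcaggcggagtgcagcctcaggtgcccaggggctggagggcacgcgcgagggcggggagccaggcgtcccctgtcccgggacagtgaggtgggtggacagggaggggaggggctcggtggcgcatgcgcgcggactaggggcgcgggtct

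All 10 genes had an entry in the RefSeq promoter table, with 16 windows in all. The E-box was found in 2 of the 16 windows, against 6.02% of the 32851 windows of all genes. It lay 244 bases before the start of Nr1i3 and 195 bases before that of Nr0b2. With so few windows, this count does not set the pair apart. TATAAA stood in 3 of the 16 windows, against 12.4% of all windows. It lay 28 bases before the start of Nr0b2, 29 bases before the second start of Pparg and 181 bases before the first start of Nr5a2. The nuclear receptor hexamer stood in 5 of the 16 windows, those of Nr5a2, Nr1h4, the second start of Rxra and 2 starts of Pparg, against 14.0% of all windows. GTTAAT was found in 2 of the 16 windows, before Nr1h4 and Nr5a2, against 6.43% of all windows. The Rxra and Ppara windows shown held 40 and 27 CpG dinucleotides, counts reached by 1.31% and 8.56% of all windows. The median over all windows was 6. The Nr1i3 and Nr0b2 windows held 2 and 3, but low counts were not particular to them. Nr1i2 held 2, Nr1h4 5, Esr1 4 and 7, Nr5a2 2 and 6, and Nr1h3 7 and 8. Rxra held 1 at its second start, and the Pparg starts held 38, 12 and 2. A match is a stretch of letters and not a measured binding site, and neither binding nor DNA methylation was measured here.

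**Figure D1:**
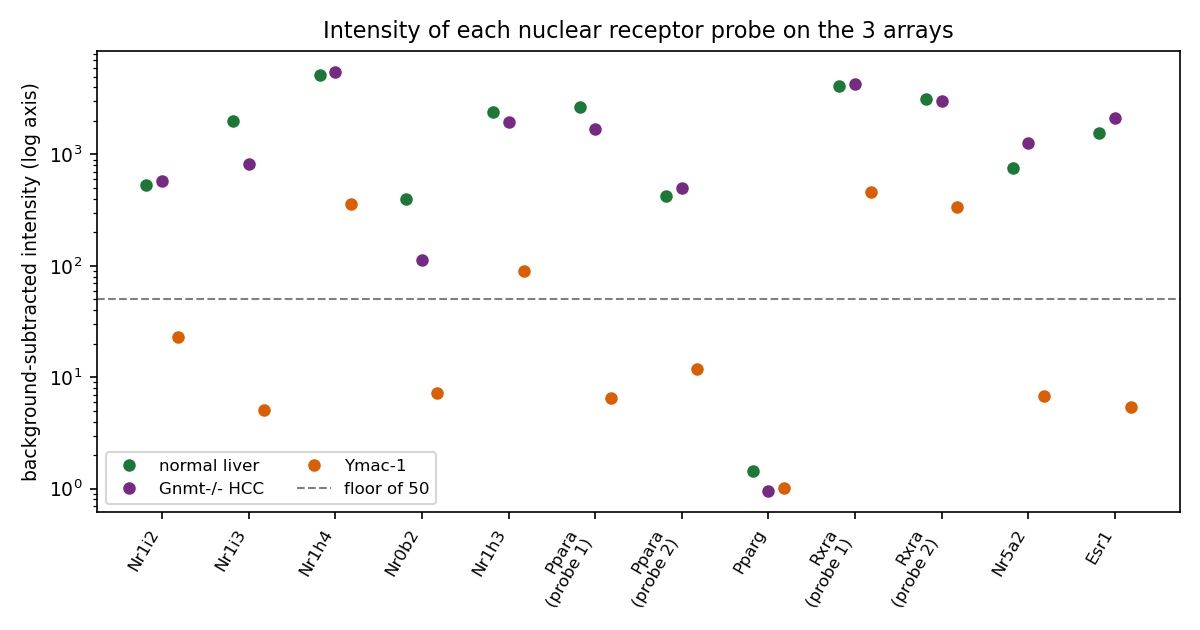
Intensity of each receptor probe on the normal liver, HCC and Ymac-1 arrays, on a log axis, as deposited, with a dashed line at the floor of 50. Each point is 1 array. Normal liver and HCC lie within 2-fold of each other except for Nr1i3 and Nr0b2, Ymac-1 lies below the line for all but Nr1h4, Nr1h3 and Rxra, and Pparg lies below it on every array.

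Of the receptors for foreign compounds, Nr1i3 was lower in HCC and Nr1i2 lay within 2-fold of normal liver. Nr1i3 read 2003 in the liver, 821 in the tumor and 5.10 in the line. Its level was 2.44-fold lower in HCC than in normal liver (log2 difference -1.29) and Ymac-1 lay at least 16.4-fold below HCC. Nr1i2 read 529, 579 and 22.7 on the same arrays. Its levels in normal liver and HCC lay within 2-fold of each other (log2 difference 0.13), and Ymac-1 was at least 11.6-fold lower than HCC.

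Of the bile acid receptor and its repressor partner, Nr0b2 was the one lower in HCC. Nr1h4 read 5199 in the liver, 5523 in the tumor and 358 in the line, where it was still above the floor and 15.4-fold lower than in HCC. Nr0b2, a gene that FXR induces, read 396 in the liver, 113 in the tumor and 7.19 in the line. It was 3.50-fold lower in HCC than in normal liver (log2 difference -1.81), and only 49 of the 10751 genes above the floor on at least 1 of these arrays had a more negative difference. In Ymac-1 it was at least 2.26-fold lower than in HCC and at least 7.92-fold lower than in normal liver.

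Of the lipid sensors, Nr1h3 and Ppara lay within 2-fold of normal liver in HCC under the deposited scaling, though Ppara passed the threshold as lower under 3 other scalings and Nr1h3 under 2. Nr1h3 read 2426 in the liver, 1962 in the tumor and 90.1 in the line, a measured 21.8-fold drop from HCC to Ymac-1. The brighter Ppara probe read 2665, 1702 and 6.49, so that HCC was lower by a log2 difference of -0.65 and Ymac-1 at least 34.0-fold lower than HCC. The other Ppara probe read 427, 502 and 11.9. The Ppara probes thus differed in sign between normal liver and HCC (-0.65 against 0.23), and both were under the floor in Ymac-1. The Pparg probe read 1.45, 0.948 and 1.01, so no direction or fold can be given for it.

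Rxra, the shared partner, was nearly level between normal liver and HCC. Its brighter probe read 4147 in the liver, 4265 in the tumor and 462 in the line, and the other read 3168, 3031 and 339.8. The log2 differences of HCC minus normal liver were 0.04 and -0.06, and those of Ymac-1 minus HCC were -3.21 and -3.16, so the probes gave like values in both steps. Nr5a2, which controls bile acid and cholesterol genes, read 758, 1258 and 6.81. It was the receptor with the highest difference in HCC, at 1.66-fold above normal liver (log2 difference 0.73), and Ymac-1 lay at least 25.2-fold below HCC. Esr1 read 1560.1, 2126 and 5.41, with HCC 1.36-fold above normal liver and Ymac-1 at least 42.5-fold below HCC.

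In the comparison of HCC with normal liver, 2 of the 10 receptors were lower, Nr1i3 and Nr0b2, and 0 were higher. Among all 19084 genes, 0.749% were lower and 15.9% were higher. The median log2 difference was 0.02 over the 10 receptors and 0.02 over all genes. It was 0.04 over the 9 receptors above the floor, against 0.66 over the 10751 genes above it on at least 1 of both arrays, and 8 of these 9 receptors, all but Nr5a2, lay below the 0.65 shift of the array pair. How the arrays were scaled decided how many receptors were counted as lower. With quantile normalization Ppara joined Nr1i3 and Nr0b2 (3 receptors). With the arrays set to the same upper quartile Nr1h3 and Ppara joined them (4 receptors). With the same median the count was 7, all of the 9 but Nr5a2 and Esr1. Under these 3 scalings 3.29%, 3.66% and 11.6% of all genes were lower. Nr1i3 ranged from -2.57 to -1.29 and Nr0b2 from -3.09 to -1.81 over the scalings, floors and probe rules tried, so both were called lower in each of them. Nr5a2 ranged from -0.55 to 0.73 and Esr1 from -0.84 to 0.45, so their direction was not settled.

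In Ymac-1, 9 of the 10 receptors were lower than in HCC and 0 were higher, against 15.9% of all genes lower and 14.7% higher. The exception was Pparg, which was at background. The median log2 difference was -3.99 over the 10 receptors and 0 over all genes. For Nr1h4, Nr1h3 and Rxra the Ymac-1 reading was above the floor and the fold was measured, and for the other 6 it was a lower bound. Against normal liver 9 receptors were lower as well, with 9.41% of all genes lower and 23.3% higher. The measured folds below normal liver were 26.9 for Nr1h3, 14.5 for Nr1h4 and 8.97 for Rxra, and the other 6 were at least 7.92-fold lower. This pair of comparisons shares the Ymac-1 array. Nr0b2 was the only receptor whose call in Ymac-1 against HCC depended on scaling, at -0.70 with quantile normalization, -0.59 with the same median and -0.86 with the same upper quartile. Its HCC reading of 113 lay close to the floor, which caps the difference that could be seen.

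**Figure D2:**
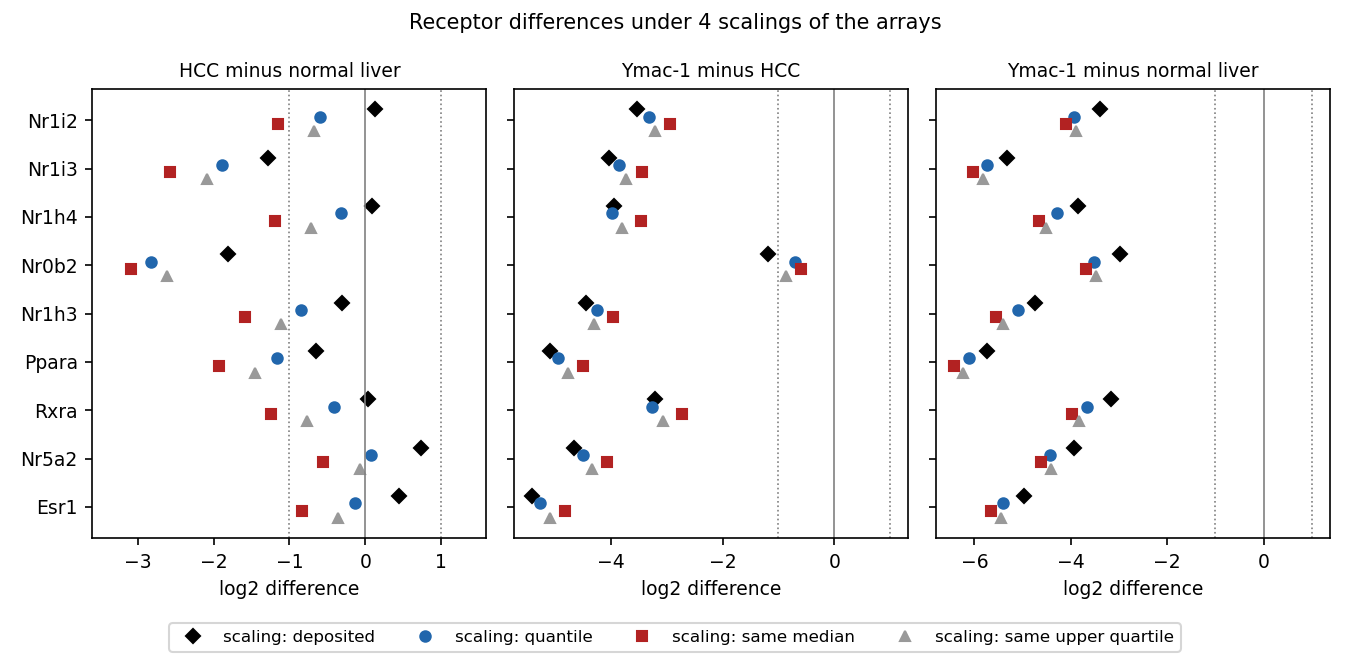
Log2 differences of the 9 receptors above the floor in each of the 3 comparisons, under the deposited scaling and 3 others. Dotted lines mark a log2 difference of 1 in size. In HCC minus normal liver only Nr1i3 and Nr0b2 lie past the line under every scaling, and in both Ymac-1 comparisons every receptor does except Nr0b2 against HCC, which does so as deposited but not under the other scalings.

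Markers of cell types also differed between the arrays, and not always in the direction of the receptors. From HCC to Ymac-1, all 15 hepatocyte markers were lower, and so were 14 of 15 macrophage and Kupffer cell markers (summed intensity 30259 and 990.0), 12 of 12 endothelial markers (15281 and 307) and 9 of 13 stellate cell and fibroblast markers (37103 and 1532). Lrat, Col1a2 and Acta2 of the stellate cell list and Emcn of the endothelial list were at or below 0 in Ymac-1. Of 6 bile duct markers 3 were higher and 1 lower in Ymac-1, and their summed intensity was 881 in HCC and 14809 in Ymac-1, most of it from Krt7 (6382) and Krt19 (7891), while Epcam read 382 in HCC and 0.541 in Ymac-1. From normal liver to HCC, 10 of 15 macrophage markers were higher and 2 lower (Cd163 and Marco). Of 12 endothelial markers 6 were higher and 0 lower, and of 13 stellate cell markers 6 were higher and 0 lower. Of 15 hepatocyte markers 2 were higher and 0 lower, against 15.9% of all genes higher and 0.749% lower. With quantile, same median and same upper quartile scaling the higher ones were 4, 1 and 4 for macrophages, 2, 2 and 2 for endothelium and 3, 1 and 2 for stellate cells. The lower ones were 2, 2 and 2 for macrophages and 1, 2 and 1 for endothelium. They were 1, 4 and 0 for stellate cells and 0, 3 and 0 for hepatocytes. Among all genes 4.79%, 2.85% and 4.89% were higher and 3.29%, 11.6% and 3.66% lower. Of 7 neutrophil markers 4 were higher in HCC as deposited and under each of these scalings. Their summed intensity was 283 in normal liver and 4073 in HCC. The part of these cell types in the receptor differences was not tested.

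The receptors were then set beside the rest of their family. Of 35 other nuclear receptor genes measured, 8 exceeded normal liver in HCC and 1 lay below it, while Ymac-1 exceeded HCC in 3 and lay below it in 10. Among all genes 15.9% and 0.749% were higher and lower in HCC, and 14.7% and 15.9% in Ymac-1 against HCC. The 8 higher and 1 lower in HCC became 4 and 4 with quantile, 4 and 7 with same median and 4 and 3 with same upper quartile scaling. Of the 26 above the floor on at least 1 array, the lowest difference of Ymac-1 minus HCC was that of Hnf4a, at -3.02, and 8 of the 9 liver receptors lay below it, Nr0b2 being the exception. The count was 8 under each of the other 3 scalings too. The floor limits this comparison, since only 7 of the 26 were bright enough in HCC to show a drop of the size of the liver receptors' median.

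Hnf4a, a master regulator of hepatocyte genes, read 3824 in the liver, 6113 in the tumor and 752 in the line, 8.13-fold lower than in HCC. Rora, a receptor tied to the circadian clock, read 1315, 1296 and 216, a log2 difference of -2.58 from HCC to Ymac-1. Rxrb, a paralog of Rxra, read 1336, 2094 and 1230, within 2-fold in every comparison under the deposited scaling, while the third paralog Rxrg read 164, 136 and 12.6. Esr2, the paralog of Esr1, read 16.1, 330.5 and 25.1 and so was above the floor in HCC alone, at least 6.61-fold over each of the other arrays. Ppard, the remaining PPAR, read 8.42, 28.3 and 25.3, all under the floor. Nr4a1, an immediate-early gene, read 116, 906 and 170.2, 7.82-fold higher in HCC than in normal liver. Esrrg, a regulator of energy metabolism, was 4.08-fold lower in HCC, at 206 and 50.5.

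**Figure D3:**
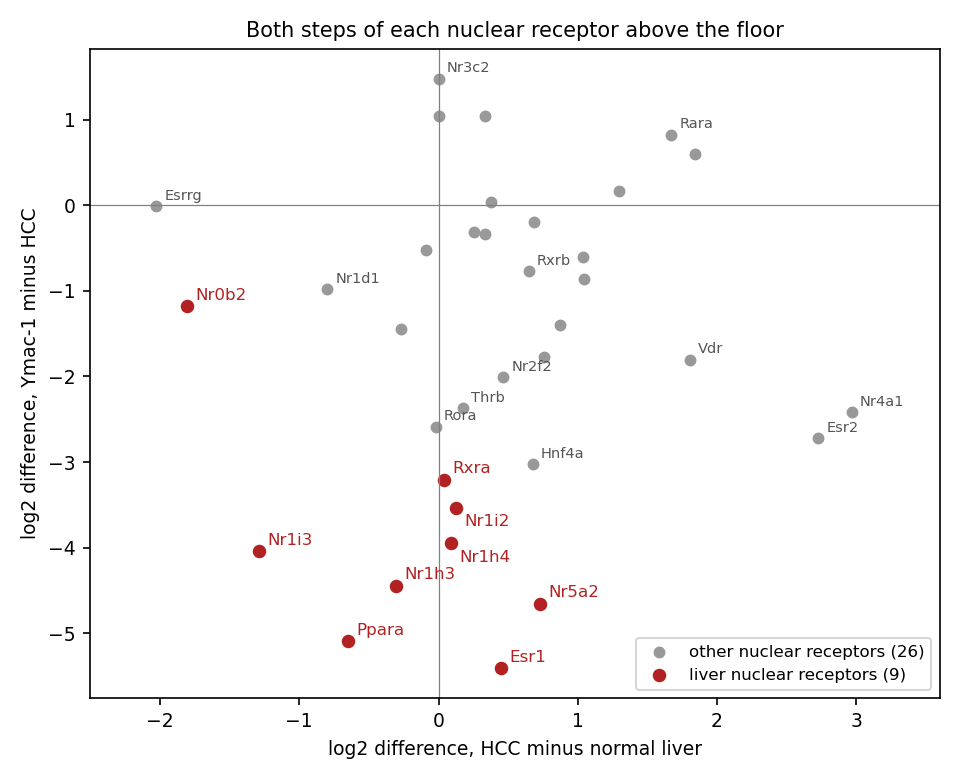
Log2 difference of HCC minus normal liver (horizontal axis) against Ymac-1 minus HCC (vertical axis) for the liver receptors and the other nuclear receptors above the floor. Each point is 1 gene. The axes share the HCC array. The liver receptors lie in the lower part, 8 of 9 below Hnf4a at -3.02 on the vertical axis.

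To find genes of like pattern, the log2 steps of each receptor from normal liver to HCC and from HCC to Ymac-1 were set against those of 59 genes from the lists of other nuclear receptors, coregulators and hepatocyte transcription factors, over the 3 arrays. A step into a reading under the floor stops at the floor, so only pairs above it on every array have a measured distance. Nr1h3 was the only receptor to lie above the floor on all arrays together with its nearest gene, which was Tbx3, a T-box transcription factor, at a distance of 0.76 on the log2 scale. Tbx3 read 3129, 2609.95 and 70.9 on the 3 arrays in the same order. With floored values the nearest genes were Tbx3 for Ppara (0.40), Prox1, a factor of liver development, for Rxra (0.41) and Cebpa, which drives hepatocyte genes, for Esr1 (0.47). Ppara, Esr1 and Prox1 were under the floor in Ymac-1, so these distances are set in part by the floor and their order cannot be read. Rora, the next nearest gene to Rxra, was above the floor on all arrays, as was Rxra. Their measured distance of 0.62 was smaller than that of Nr1h3 and Tbx3. Cebpa read 2555, 2594 and 53.3, and Prox1 read 302, 368 and 12.2.

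Genes under the control of these receptors were taken from lists written from general knowledge. Their counts stand against 15.9% of all genes higher and 0.749% lower in HCC, and for Ymac-1 minus HCC against 14.7% higher and 15.9% lower. In HCC they depended on scaling. With quantile, same median and same upper quartile scaling 4.79%, 2.85% and 4.89% of all genes were higher and 3.29%, 11.6% and 3.66% lower, and the counts under these scalings are given in this order. Of 24 measured PXR and CAR targets, HCC exceeded normal liver in 7 and lay below it in 5, with a median difference of 0.24 against 0.02 over all genes. Under the other scalings 3, 2 and 2 were higher and 5, 12 and 6 lower, with medians of -0.19, -0.99 and -0.52. The lower ones were led by cytochromes P450. Cyp2b13 read 2866 in the liver, 209 in the tumor and 19.2 in the line, a 13.7-fold drop in HCC. Cyp2b9 read 2839, 258 and 34.4, a drop of 11.0-fold. Both are female-biased P450 genes in mouse liver. Cyp2b10, the textbook CAR target, read 145, 274 and 8.90, higher in HCC by 0.92 and so within 2-fold. Among the higher ones were Gstm3, a glutathione transferase, at 182 in normal liver and 2241 in HCC (12.3-fold), and Abcc4, an efflux pump, at 123 and 602 (4.91-fold). Abcc4 was also higher in Ymac-1, at 2182. From HCC to Ymac-1, 17 of the 24 were lower and 3 higher, with a median of -2.22.

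Of 24 FXR and SHP targets, in which Nr0b2 itself is counted, 5 were higher and 2 lower in HCC, with a median of 0.29. Under the other scalings 2 were higher in each and 2, 10 and 4 lower, with medians of -0.09, -0.76 and -0.28. Cyp7a1, the rate-limiting enzyme of bile acid synthesis and a target of SHP repression, read 708 in the liver, 1259.6 in the tumor and 1.94 in the line. Its difference in HCC was 0.83 and ran from -0.45 to 0.83 over the scalings. Cyp8b1, the sterol 12-alpha-hydroxylase of the same pathway, read 11715, 5670.5 and 16.5 and was 2.07-fold lower in HCC. Slc51b, a subunit of the bile acid exporter induced by FXR, read 119, 733 and 90.1 and was 6.15-fold higher in HCC. Abcb11, the canalicular bile salt pump, read 6218, 5075 and 9.83. In Ymac-1, 22 of the 24 were lower than in HCC and 0 higher, and their median of -4.97 was the lowest of the receptor target lists.

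Of 20 LXR targets, in which Nr1h3 is counted, 8 were higher and 0 lower in HCC, and Ymac-1 lay below HCC in 15 and above it in 0. Under the other scalings 5, 3 and 5 were higher and 0, 2 and 1 lower in HCC. Lpl, which releases fatty acids from lipoproteins, read 473 in the liver, 10752 in the tumor and 33.1 in the line, 22.7-fold higher in HCC. The cholesterol exporters Abca1 and Abcg5 were 2.28-fold and 3.41-fold higher in HCC, although over the scalings the Abca1 difference ran from -0.09 to 1.19 and that of Abcg5 from 0.49 to 1.77. Srebf1, a driver of fatty acid synthesis, read 47.0, 46.5 and 33.1, under the floor on all arrays.

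The PPARα targets had a median of -0.33 in HCC under the deposited scaling. Of 32 measured, 6 were lower and 4 higher than in normal liver, and the count of lower ones was 11, 24 and 17 and of higher ones 0 under the other scalings. Acot3, an acyl-CoA thioesterase, read 5349 in the liver, 343 in the tumor and 38.7 in the line, 15.6-fold lower in HCC. Acot1, of the same family, was 4.53-fold lower (5892 and 1301), and Fgf21, a fasting hormone, was 4.12-fold lower (1518 and 369). The highest differences in HCC were those of Aqp3, which read 1033, 2413 and 2756, and Pdk4, which read 681, 1563 and 177. Both were among the 4 counted as higher as deposited, and neither was under the other scalings. Cpt1a, the gate of mitochondrial fatty acid oxidation, read 7801, 11602 and 1432. In Ymac-1, 26 of the 32 were lower than in HCC and 1 higher. That gene was Plin2, the coat protein of lipid droplets, which read 12367, 4569.5 and 9557. Fabp1, the liver fatty acid binding protein, fell at least 788-fold from HCC to Ymac-1.

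Although the Pparg probe was at background, 8 of 23 PPARγ targets were higher in HCC and 2 lower. Under the other scalings 5, 4 and 5 were higher and 3, 3 and 3 lower, with a median of 0 in each. Fabp4, the adipocyte fatty acid binding protein, read 78.1 in the liver, 7149 in the tumor and 88.6 in the line, 91.5-fold higher in HCC. Cidea, a lipid droplet protein, read 10.1, 430.2 and 17.6 and was at least 8.60-fold higher. Cidec of the same family read 1647, 2521 and 79.8, and Cd36, a fatty acid uptake receptor, read 335, 233 and 3.87. Adipoq, the defining adipocyte hormone, read 2.49, 8.50 and 6.26 and so was under the floor on each array. Fabp4 is also made by endothelial cells and macrophages, whose counts are given above, and their part in its level was not tested.

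Of 13 LRH-1 targets, in which Nr0b2 itself is counted, 3 were higher and 2 lower in HCC, and Ymac-1 lay above HCC in 3 and below it in 9. The 2 lower in HCC were Nr0b2 and Cyp8b1, both also in the FXR and SHP list. Under the other scalings 1, 0 and 0 were higher and 2, 4 and 3 lower in HCC. The higher ones in Ymac-1 included the cell cycle genes Ccnd1, which read 3997, 3391 and 27519.9, and Ccne1, which read 10.4, 80.9 and 742. They were 8.12-fold and 9.17-fold higher than in HCC. The median of the list for Ymac-1 minus HCC was -2.85, and its lowest genes were Apoa1 (-9.79) and Abcg5 (-7.75). Nr5a2 itself read under the floor in Ymac-1. Of 13 estrogen receptor targets 5 were higher and 0 lower in HCC, and Ymac-1 lay above HCC in 2 and below it in 7. Under the other scalings 3 were higher in each and 0, 5 and 2 lower in HCC. Greb1, the classical target in breast cells, was at background on every array (2.52, 0.0552 and 0.930). Sult1e1, which inactivates estrogens, read 47.3 in the liver, 817 in the tumor and -2.48 in the line and was at least 16.3-fold higher in HCC. Several of these genes also answer to other factors, and the lists share members, so their counts are not independent.

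**Figure D4:**
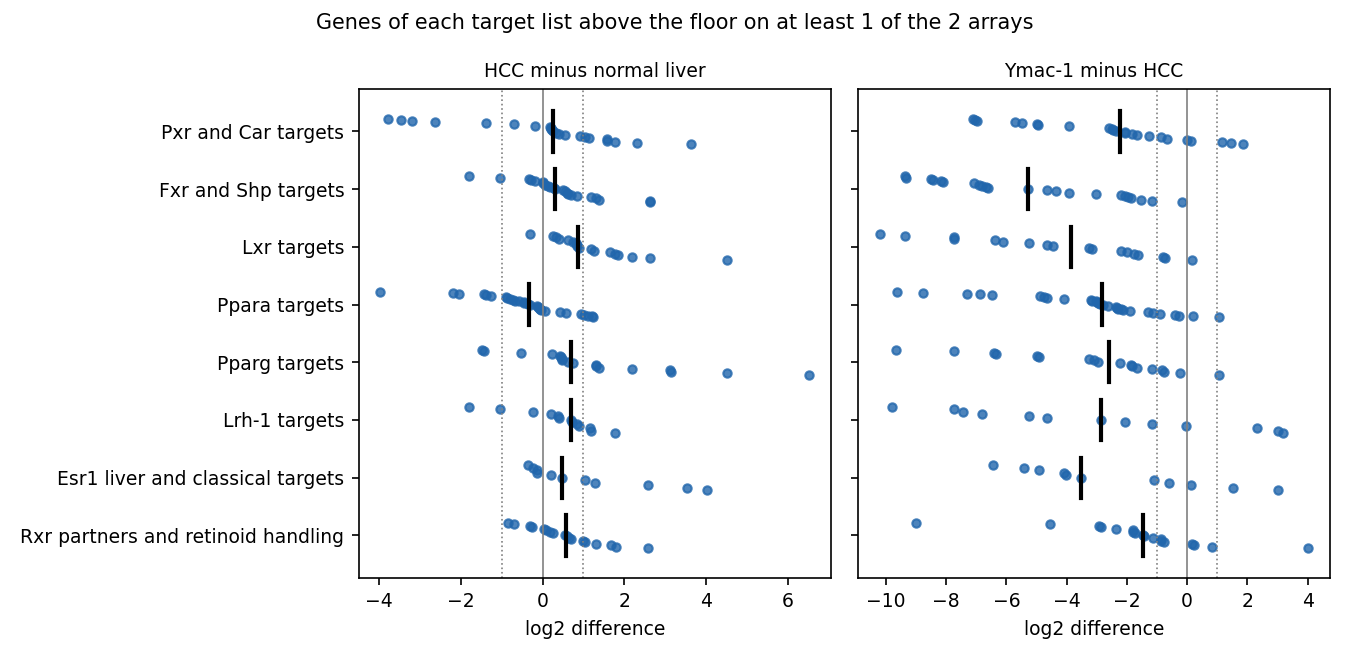
Log2 differences of the genes in each receptor target list for HCC minus normal liver and Ymac-1 minus HCC, and of RXR partners and retinoid genes. Each point is 1 gene above the floor on at least 1 of both arrays, and the bar is the median of these points. Left, the medians lie between -0.37 (PPARα targets) and 0.87 (LXR targets), and right, between -5.29 (FXR and SHP targets) and -1.46 (RXR partners and retinoid handling).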

How the data were processed

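RNA of 3 samples was measured, 1 array each. The authors amplified total RNA, labelled it with Cy5 and deposited linear intensity values for 26423 probes per array, with background subtracted, so that some values lie below 0. The sources used here do not say how the scans were made, corrected and levelled between arrays. Their scaling was left as it was, with array medians of 15.8 (normal liver), 38.5 (HCC) and 27.6 (Ymac-1). The number of arrays limits the precision.

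Gene names came from the platform annotation, in which 21876 probes had 1 symbol and 4547 had none. The Entrez ID of 21825 probes was found in the RefSeq gene table of GRCm38.p6, among them all 12 receptor probes. For genes with several probes, the brightest by mean log2 after the floor of 50 was used. With 1 array per condition no test was run, and the log2 threshold of 1 follows the ratio in the study's methods. Counts were read against the share called among 19084 genes.

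The 10 receptors, the target lists and the marker lists were chosen with earlier results of these data known. The named genes were drawn from the 10 receptors, their close paralogs, textbook targets and the genes nearest in pattern. The rule also gave the 2 highest and 2 lowest measured genes of each list in each comparison, not all of which are printed. Fgf21, Cidea and other examples outside this rule were named after their values were seen. Nr1h2 and Cyp3a11 had no probe under these names and were not analysed here. The alternatives were 3 other scalings, floors of 20 and 100, thresholds of 1.5-fold and 4-fold, the mean of a gene's probes and a background of genes above the floor only. The counting was tested on simulated data. Python 3.11.15, pandas 2.3.3, numpy 2.4.6 and matplotlib 3.10.9 were used.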

Additional observations from a re-analysis of the deposited data

How the results depend on the processing

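Between 2 single arrays with unstated scaling, small differences depend on how the arrays are levelled. Of 143 genes lower and 3028 higher in HCC than in normal liver, quantile normalization gave 627 and 914, the same median 2209 and 543, and the same upper quartile 699 and 933. For Ymac-1 minus normal liver, 1795 lower and 4447 higher became 3055 and 2783 with the same median. The count of receptors lower in HCC, 2 as deposited, was 7 with the same median, 4 with the same upper quartile and 0 at the 4-fold threshold. The count higher went from 0 to 1 at the 1.5-fold threshold (Nr5a2, 0.73). With the same median, Nr1i2 (-1.15), Nr1h4 (-1.20) and Rxra (-1.24) turned from within 2-fold to lower in HCC. The count lower in Ymac-1 than in HCC went from 9 to 8 in 5 settings, all through Nr0b2, which was -0.18 with the floor of 100. The count of 9 receptors lower in Ymac-1 than in normal liver held in every setting tried. Of the 240 receptor differences recomputed, 7 passed the threshold newly, 7 no longer passed it and 3 turned from positive to lower. The other 223 kept their side of it, and 12 of these changed sign within it. Other causes of the moves were not tested. No paired analysis was possible because each condition had 1 array. Signal over background limits Pparg, and every Ymac-1 reading under the floor gives only a bound.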

Other observations

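Nuclear receptors act through coregulators. Of 22 measured, Ymac-1 exceeded HCC in 3 and lay below it in 7, against 14.7% of all genes higher and 15.9% lower, with a median log2 difference of -0.05. Lpin1, a lipid phosphatase that also acts as a coactivator with PPARα, read 1926, 5499.5 and 133 (normal liver, HCC, Ymac-1), 41.5-fold lower than in HCC. Prmt1, an arginine methyltransferase, read 318, 956 and 4568, 4.78-fold higher than in HCC. Ppargc1a, the fasting-induced coactivator, read 10.1, 110 and 12.7. Among 22 genes of RXR partners and retinoid handling, Ymac-1 was above HCC in 1 and below it in 11, with the same shares of all genes. The higher one was Rdh10, which makes retinaldehyde from retinol, at 548, 441 and 7186.

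Of 16 hepatocyte transcription factors, Ymac-1 was below HCC in 9 and above it in 1, against 15.9% and 14.7% of all genes. Foxa3 read 6984, 9638 and 103, 93.2-fold lower. The higher one was Foxa2, of the same family, which read 376, 318 and 1102, 3.47-fold higher than in HCC.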
